A study of Rattus norvegicus with 8 samples.

Results

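The 72 potassium channel genes outside the Kcnq subfamily were followed through CA1 and CA3 of the rat hippocampus, with and without a lesion. They are the genes whose platform symbol begins with Kcn and not with Kcnq, taken from probe sets with exactly 1 gene symbol, and they had 120 probe sets of the 31099 on the array and made up 72 of 14218 named genes. Each gene is represented by its probe set with the highest mean log2 value over the 8 arrays. Total RNA came from subdissected hippocampal slice cultures, thin explants of rat hippocampus kept alive in a dish, each array being labelled with 15 cultures and a time of 7 days. The groups were labelled: CA1 control (3 arrays), CA3 control (3 arrays), CA1 lesion (1 array) and CA3 lesion (1 array). The labels give neither the kind of lesion, the strain or age of the rats, nor when the count of days began. Each array therefore stands for a pool of cultures, and each lesion group for a single pool.

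Potassium channels let potassium leave the cell and so bring the membrane back towards rest. Voltage-gated subunits (Kcna, Kcnb, Kcnc, Kcnd, Kcnh) open on depolarisation and shape the action potential and its timing, and cytoplasmic or silent partners (Kcnab, Kcnip, Kcns, Kcnv, Kcng) change their speed, voltage range or surface delivery. Inward rectifiers (Kcnj) and leak channels with paired pore domains (Kcnk) set the resting potential, some under the control of G proteins or ATP, while the calcium-activated channels (Kcnm, Kcnn) end bursts of firing. In the hippocampus, A-type channels of Kcnd subunits with Kcnip partners are known for damping signals in pyramidal cell dendrites.

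The arrays had a like 2% trimmed mean, near 2501, but their median intensities differed. The median ran from 634 to 815 in the CA1 controls and from 561 to 658 in the CA3 controls. It was 635 (CA1) and 738 (CA3) in the lesion arrays. The Gapdh 3'/5' signal ratio, which rises as RNA degrades, ran from 3.71 to 5.0 in the CA1 controls and from 3.75 to 3.93 in the CA3 controls, and the lesion arrays stood at 4.65 (CA1) and 5.23 (CA3). The beta-actin 3'/5' ratio was larger and ordered the arrays otherwise. It ran from 14.5 to 22.2 in the CA1 and from 15.0 to 21.4 in the CA3 controls, with 17.3 (CA1) and 19.8 (CA3) in the lesion arrays. The field labels were borne out by marker genes: all 5 measured CA1 pyramidal markers were lower in CA3 (4 past the threshold) and all 5 CA3 markers that passed the filter, of 7 measured, were higher there (2 past it). Iyd and Prss35, the CA3 markers too dim to be tested, were lower in CA3 (-0.52 and -0.74). The summed signal of 10 pan-neuronal markers ran from 201917 to 265858 in the CA1 controls and from 289787 to 399727 in the CA3 controls. That of 11 microglia markers spread from 6719.5 to 92214 and from 6139 to 77216 in the same controls, so the controls themselves differed widely in this signal.

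Of the 72 genes, 41 passed the filter on dim probe sets, which asks for a mean log2 value over the 8 arrays at or above the 40th percentile of all probe sets (8.35, an intensity of about 310.9). The 31 dim genes were 6 of 8 Kcnh, 9 of 15 Kcnj, 4 of 11 Kcnk, 2 of 3 Kcnn, 1 of 6 Kcna, 1 of 3 Kcnm and 7 of 19 auxiliary and silent genes, and the lone Kcnb gene, Kcnb2. Their signal ran from 14.7 to 1266 and was unsteady, with a median range over the 8 arrays of 3.72 log2 units against 1.38 for the 41. The gene just above the threshold was Kcnk12 (mean log2 8.45) and the one just below it Kcng3 (8.17). No test was made of the dim genes.

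**Figure D1:**
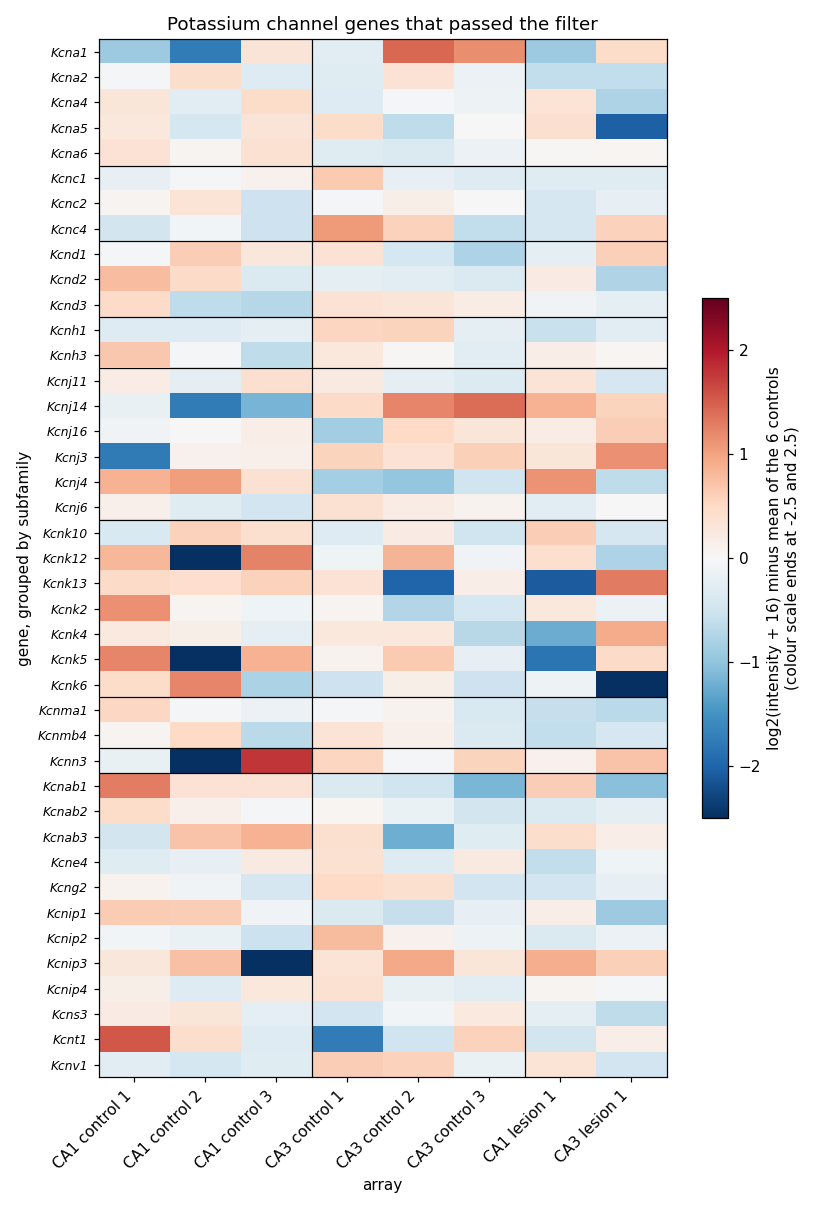
Log2(intensity + 16) of the 41 potassium channel genes that passed the filter (rows, grouped by subfamily) in each of the 8 arrays (columns), as the difference from the mean of the 6 control arrays. Kcnab1 and Kcnj4 are warm in all 3 CA1 controls and cool in all 3 CA3 controls, while most rows differ as much within a group as between groups.

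No potassium channel gene passed the threshold between the CA3 and CA1 controls, and the smallest p-values were those of an auxiliary subunit and an inward rectifier. Kcnab1 and Kcnj4 had about 2.51-fold and 2.9-fold more signal in CA1, and Kcnj14 had 4.18-fold more in CA3, but none of the 41 genes passed the limma threshold (adjusted p from 0.111 for Kcnab1 to 0.998 for Kcnh3), when 0.526% of all 18625 probe sets tested did. At an unadjusted p under 0.05 there were 6 genes, Kcna6, Kcnj14, Kcnj4, Kcnab1, Kcnip1 and Kcnv1, or 14.6% against 8.31% of all probe sets. The median difference was -0.048 over the 41 genes, -0.11 over all 72 and -0.041 over all probe sets tested, all on the log2(value + 16) scale that every difference here uses and that understates the change of dim genes. Of the 41, 22 were higher in CA1 and 19 in CA3. Control arrays of the fields did not overlap for 5 genes higher in CA1 (12.2% of the 41, against a background of 8.85%) and 3 higher in CA3 (7.32%, against 6.06%), shares near the background that give no result about the family. For 15 genes the 95% interval lay within 1 log2 unit either way, and these 15 were Kcna2, Kcna4, Kcnc1, Kcnc2, Kcnh3, Kcnj6, Kcnj16, Kcnk4, Kcnma1, Kcnmb4, Kcnab2, Kcne4, Kcng2, Kcnip4 and Kcns3.

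**Figure D2:**
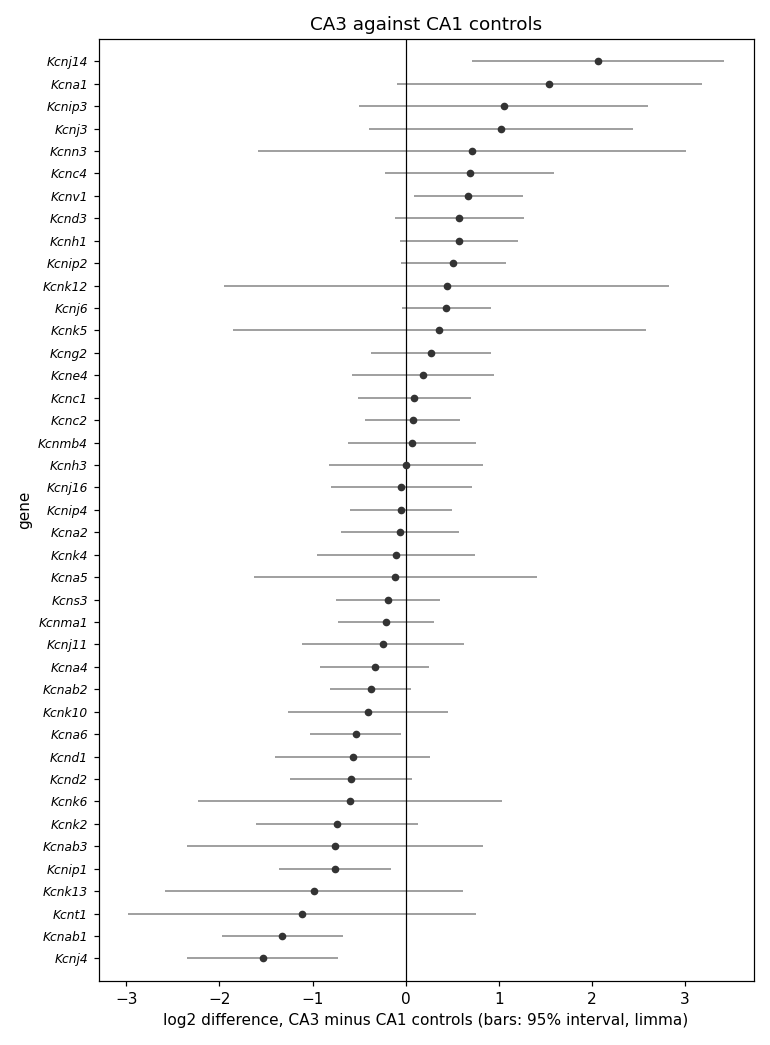
Log2 difference of CA3 minus CA1 controls (x axis) with its 95% interval from limma for the 41 genes that passed the filter (y axis, ordered by difference). The ends of the order are Kcnj4 at -1.54 and Kcnj14 at 2.06, and none of the genes passed after adjustment over all probe sets.

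Kcnab1 encodes a cytoplasmic beta subunit that speeds the inactivation of Kcna channels. The 3 CA1 controls, in the order of their numbers as throughout, read 20461, 10814 and 10781, and the 3 CA3 controls 6592, 5989 and 3804. Every CA1 control lay above every CA3 control, and CA3 minus CA1 was -1.33 ± 0.29 (adjusted p = 0.111 by limma; SE, n = 3 against 3; 95% interval -1.98 to -0.68). The lesion arrays kept the order, with 12869 in CA1 and 4093 in CA3. The second Kcnab1 probe set, which is dimmer, did not show this, with a difference of 0.057 (adjusted p = 0.988). The summed pan-neuronal signal was higher in the CA3 controls, though its marker Camk2a was lower there (-0.45). The summed signal of the CA1 pyramidal markers ran from 57289 to 114233 in the CA1 controls. In the CA3 controls it ran from 5785 to 9760. The Gapdh ratio of CA1 control 1 (3.71) lay below those of the CA3 controls, while those of CA1 controls 2 and 3 (4.98 and 5.0) lay above them. The part of cell content or RNA quality in the Kcnab1 difference was not tested. Kcnab2, a related beta subunit, read 18265, 14548 and 13012 in the CA1 and 13803, 11766 and 9709 in the CA3 controls, which overlap (-0.38 ± 0.20, adjusted p = 0.65).

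Kcnj4 encodes a strongly rectifying inward rectifier that holds the resting potential. CA1 controls read 1599, 1814 and 1138 and CA3 controls 474, 439 and 610.3, with no overlap and a difference of -1.54 ± 0.36 (adjusted p = 0.151, 95% interval -2.34 to -0.73). The CA1 lesion array, at 1897, lay above all 3 of its controls, and the CA3 lesion array, at 557, among its own, so the field difference was present in the lesion arrays too. Without any single array the difference stayed between -1.73 and -1.40. Kcnj4 was picked on these same arrays, so this range is no sign of stability. The other Kcnj4 probe set, too dim to be tested, did not show this, with a difference of -0.11 and overlapping controls. Its lesion arrays read 31.2 in CA1, below all 3 controls, and 280 in CA3, above them.

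The promoters of Kcnab1 and Kcnj4, the pair with the largest CA1-over-CA3 differences among the 41 genes above the filter, are given as 250 bases before to 50 after the annotated start, from RefSeq on GRCr8. Capitals mark the E-box letters CANNTG, which read the same on both strands and do not overlap each other here. None stands in the Kcnab1 window. Kcnab1 (chr2:151614301-151614600, plus strand) has 56.7% G and C, 9 CG pairs and 0 E-boxes. Kcnj4 (chr7:112954498-112954797, minus strand) has 65.7% G and C, 30 CG pairs and 2 E-boxes. At least 1 E-box stands in 72.1% of all 33469 promoters of this length and in 66.7% of the 57 promoters of potassium channel genes in the table, whose median share of G and C was 61.7% against 51.7% over all. The letters show no shared E-box between the pair, and the arrays do not tell which start was used.
Kcnab1: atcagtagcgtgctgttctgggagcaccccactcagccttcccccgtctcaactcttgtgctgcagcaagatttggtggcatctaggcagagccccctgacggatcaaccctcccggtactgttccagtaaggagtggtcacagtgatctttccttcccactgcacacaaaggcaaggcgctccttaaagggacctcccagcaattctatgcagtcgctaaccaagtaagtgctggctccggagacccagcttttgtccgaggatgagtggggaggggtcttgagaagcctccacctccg
Kcnj4: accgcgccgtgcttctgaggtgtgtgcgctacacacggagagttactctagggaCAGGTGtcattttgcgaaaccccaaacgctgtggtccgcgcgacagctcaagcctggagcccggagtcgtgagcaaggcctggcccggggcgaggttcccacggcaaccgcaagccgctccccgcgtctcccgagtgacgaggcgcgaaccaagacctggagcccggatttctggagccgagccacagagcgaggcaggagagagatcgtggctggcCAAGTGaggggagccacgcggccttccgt

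**Figure D3:**
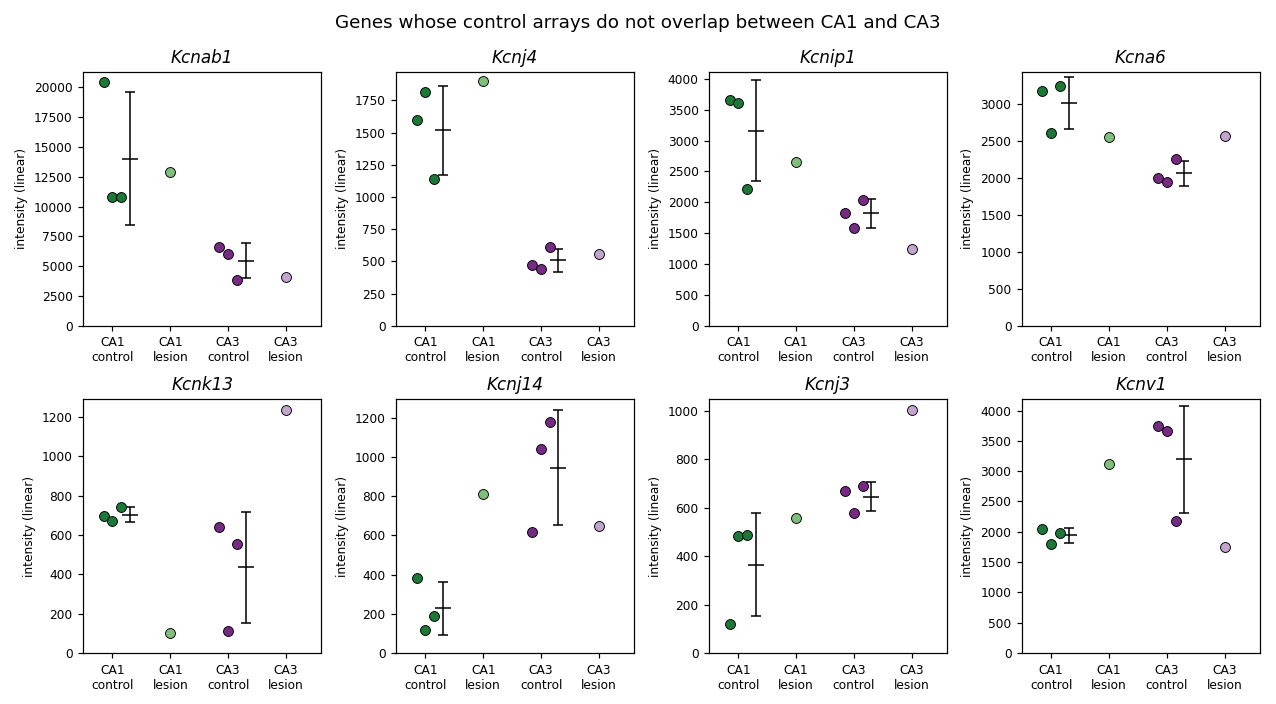
Deposited linear intensity (y axis, from 0) of the 8 genes whose 3 CA1 and 3 CA3 control arrays do not overlap, with 1 point per array and, for controls, the mean and SD (bar). In Kcnk13 and Kcnj3 a single control array (CA3 control 2 and CA1 control 1) makes most of the gap, while in Kcnj4 and Kcnab1 all arrays of a field are well apart.

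Voltage-gated subunits of the Kcna group, which act at the axon and its start, had overlapping field controls in 4 of the 5 tested genes. Most probe sets overlap in this way, since only 8.85% of all tested were apart with CA1 higher and 6.06% with CA3 higher. Neither this count nor the overlaps given below for other subfamilies is therefore a result about a subfamily. Kcna6 was the one whose controls did not overlap, with 3189, 2614 and 3249.5 in CA1 and 2004, 1943 and 2260.3 in CA3 (-0.54 ± 0.22, adjusted p = 0.562). Its other probe sets, both dim and with overlapping controls, went opposite ways (0.96 and -0.41). Kcna2 read 2465, 3386 and 2004 in CA1 and 2026, 3224 and 2262 in CA3, ranges that lie over each other (-0.059 ± 0.28, 95% interval -0.69 to 0.57). Kcna4, an A-type subunit of axons, was 2726, 1834 and 3041 against 1758, 2133 and 2012 (-0.33 ± 0.26). Kcna1 was more variable, at 250.3, 133 and 608 in CA1 and 393, 1334 and 1092 in CA3, and its difference of 1.54 ± 0.74 had an interval of -0.10 to 3.18. Kcna5 ran from 94 to 611 over the 8 arrays.

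The A-type dendritic channels of the Kcnd group showed values that leaned to opposite fields, with overlap. Kcnd2 was 4792, 3919 and 2185 in CA1 and 2371, 2332 and 2189.7 in CA3 (-0.58 ± 0.29, adjusted p = 0.64), CA1 controls 1 and 2 being above every CA3 control and CA1 control 3 just under them. Kcnd3 was 4782, 2208 and 2069 in CA1 and 4387, 4245 and 3915 in CA3 (0.58 ± 0.31, adjusted p = 0.669), where only CA1 control 1 reached the CA3 level. The dim probe set of Kcnd2 pointed the same way (-1.16) and the second tested one of Kcnd3 the other way (-0.18). Kcnd1 ran from 658 to 1735 over all arrays (-0.57 ± 0.37).

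Their calcium-binding Kcnip partners were likewise mixed. Kcnip1 read 3652, 3611 and 2219 in CA1 and 1833, 1581 and 2045 in CA3, without overlap (-0.76 ± 0.27, adjusted p = 0.461), although the lowest CA1 and the highest CA3 control lay close. Kcnip2 read 6398, 6014 and 4645 in CA1 and 11600.4, 7269 and 6162 in CA3 (0.51 ± 0.25), while a dimmer probe set of it differed by -1.11 in the other direction. Kcnip4 overlapped, with 4659.7, 3383 and 5056 and 5521, 3721 and 3508 (-0.048 ± 0.25, 95% interval -0.60 to 0.50). Kcnip3 was 2536, 3454 and 332 in CA1 and 2637, 4011 and 2551 in CA3, a difference of 1.05 ± 0.70 in which CA1 control 3 alone was low.

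Kcnc channels, which close fast and allow high firing rates and are abundant in fast-spiking interneurons, had overlapping controls throughout. Kcnc2 was 7288, 8824 and 4882 in CA1 and 6780.3, 7721 and 7011 in CA3 (0.075 ± 0.23, 95% interval -0.43 to 0.58), and Kcnc1 was 3432, 3827 and 4283 and 6257, 3441 and 3162 (0.092 ± 0.27, 95% interval -0.52 to 0.70). Kcnc4 was higher in CA3 controls 1 and 2 than in any CA1 control and not in CA3 control 3, with 1119.8, 1476 and 1069 against 3222, 2306 and 1004 (0.69 ± 0.41). Summed interneuron markers were 52264 to 97231 in the CA1 and 51916 to 63356 in the CA3 controls over 8 measured genes. Kcns3, a silent subunit also known from those interneurons, read 4121, 4384 and 3059 and 2563, 3414 and 4208 (-0.19 ± 0.25).

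Of the ether-a-go-go group (Kcnh) only Kcnh1 and Kcnh3 passed the filter. Kcnh1 was 1542, 1547 and 1661 in CA1 and 2807, 2859.8 and 1641 in CA3 (0.57 ± 0.29, adjusted p = 0.638), CA3 control 3 standing inside the CA1 range. Kcnh3, a forebrain member, was 2013, 1234 and 806 and 1517, 1288 and 1035 with a difference of 0.004 ± 0.37 and an interval of -0.82 to 0.83. Kcnv1, a silent subunit that joins Kcnb channels, read 2051, 1804 and 1977 in CA1 and 3745, 3655 and 2181 in CA3, with no overlap (0.67 ± 0.26, adjusted p = 0.538). Kcng2, another silent subunit, overlapped (0.27 ± 0.29, interval -0.37 to 0.92).

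Among the other inward rectifiers, Kcnj14 was the one with the largest CA3-over-CA1 difference. It was dim in CA1 (381, 119.6 and 188) and brighter in CA3 (616, 1039 and 1180.5), with no overlap (2.06 ± 0.61, adjusted p = 0.314, 95% interval 0.71 to 3.41). The CA1 lesion array did not keep this order, since it read 813 against 649 in the CA3 lesion array. The mean log2 value of Kcnj14 was 7.79 in the CA1 controls, under the filter threshold of 8.35, and 9.86 in the CA3 controls. It therefore passed the filter through its CA3 control and lesion arrays. Kcnj3 and Kcnj6 form the channels that G proteins open. Kcnj3 read 120.3, 485 and 489 in CA1 and 669.8, 578 and 688 in CA3, a difference of 1.02 ± 0.64 that was 0.39 without CA1 control 1. Kcnj6 read 5378, 3990.1 and 3523 and 6397, 5603 and 5253 (0.44 ± 0.21, adjusted p = 0.632), and the 2 further probe sets of it that were tested also leaned to CA3 (0.56 and 0.35). Kcnj11, the pore of ATP-sensitive channels, ran from 598 to 1072 over the 8 arrays.

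The leak channels (Kcnk) were dim to moderate. Kcnk2, a mechanosensitive leak channel, read 2974, 1395 and 1233 in CA1 and 1400.1, 796 and 979 in CA3 (-0.73 ± 0.39), CA1 control 1 being the high array. Kcnk4 and Kcnk10, its close relatives, ran from 421 to 1945 and from 683 to 1489. Kcnk13 did not overlap (696, 669 and 744 in CA1, 639.5, 112 and 554 in CA3), but the difference of -0.98 ± 0.72 was -0.23 without CA3 control 2. Kcnk5, Kcnk6 and Kcnk12 had differences of 0.36 ± 1.00, -0.59 ± 0.73 and 0.44 ± 1.07.

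The calcium-activated channels had overlapping controls in the fields. Kcnma1, the pore of the large-conductance channel, read 9111, 6116 and 5701 in CA1 and 6183, 6753 and 4870.4 in CA3 (-0.21 ± 0.23, interval -0.73 to 0.30), and its neuronal beta subunit Kcnmb4 read 4783, 6420.5 and 2846 and 5754, 4934 and 3516 (0.063 ± 0.31, interval -0.62 to 0.75). Kcnn3, a small-conductance channel, ran from 41.9 to 1262 with an interval of -1.58 to 3.01. Kcnt1, a channel opened by sodium, was 1152, 528 and 301 in CA1 and 103, 267 and 575 in CA3 (-1.11 ± 0.84), with overlap. Kcnab3 and Kcne4, the remaining auxiliary genes above the filter, differed by -0.76 ± 0.71 and 0.19 ± 0.34.

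In the lesion arrays most channel genes stood somewhat below the average of their controls, and none passed. Averaged over both fields, 27 of the 41 genes were lower and 14 higher (65.9% lower, against 47.8% of all probe sets tested), with a median of -0.17 over the 41, -0.15 over all 72 and 0.02 over all probe sets tested. With limma 0 of 41 passed at an adjusted p of 0.05, as did 0% of all probe sets. At an unadjusted p under 0.05 there was 1 gene, Kcnma1 (2.44%, against 6.41%). All 10 pan-neuronal markers were also lower in this mean (median -0.31), all 8 astrocyte markers higher (median 0.32) and all 9 microglia markers above the filter higher (median 2.70), as were all 7 measured oligodendrocyte and myelin markers (median 1.68). With the lesion the summed microglia signal stood at 132417 (CA1) and 94570.4 (CA3), and the summed myelin signal at 529683 and 569878. Their part in the channel values was not tested, and in RNA from whole tissue fewer cells of a type and less RNA per cell cannot be told apart.

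The size of this shift depended on which control it was set against, which is a description of these arrays. Both lesion arrays carry number 1 in their titles, as control 1 of each field does. The labels do not say what the numbers mark, and they were not taken to pair the arrays. In CA1 the median gene of the 41 differed from control 1 by -0.32, from control 2 by -0.032 and from control 3 by -0.034, and in CA3 by -0.31, -0.26 and -0.048. Against control 1, 28 of 41 genes were lower in each field, and against control 3 they were 21 in CA1 and 22 in CA3. The controls also differed among themselves: the median gene of control 3 stood -0.34 from control 1 in CA1 and -0.20 in CA3, where all probe sets tested had medians of 0.013 and -0.025. Over the same controls 1, 2 and 3 the summed myelin signal was 58482, 274191 and 577686 in CA1 and 75996, 247683 and 401808 in CA3, and the summed microglia signal 6719.5, 16381 and 92214 and 6139, 11362 and 77216, so both were lowest in control 1 and highest in control 3 of each field. Their part in the differences between controls was not tested. Without CA1 control 1 the median lesion effect of the 41 genes was -0.084. Without the CA3 lesion array, which leaves the lesion effect in CA1 alone, the median was -0.095. By subfamily, 4 of 5 Kcna, 2 of 3 Kcnc, 2 of 3 Kcnd, 1 of 2 Kcnh, 5 of 7 Kcnk, 2 of 2 Kcnm and 9 of 12 auxiliary and silent genes were lower in the mean lesion effect, and 2 of 6 Kcnj and 0 of 1 Kcnn.

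**Figure D4:**
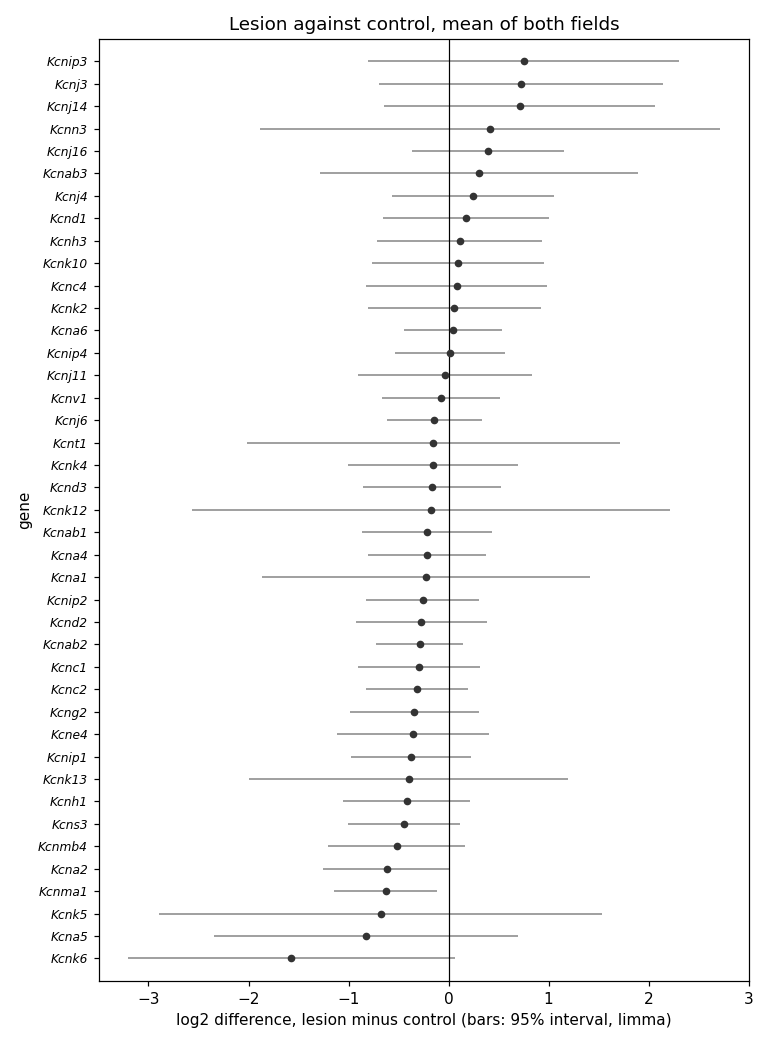
Log2 difference of lesion minus control, averaged over CA1 and CA3 (x axis), with its 95% interval from limma for the 41 genes that passed the filter (y axis, ordered by difference). The interval of Kcnma1 (-1.14 to -0.12) lies below 0, but it did not pass after adjustment over all probe sets (adjusted p = 0.771).

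For 4 genes the lesion array lay below all 3 controls in both fields (9.76% of the 41, against a background of 8.03%). Kcnma1 read 4222 after the lesion in CA1, where the controls were 9111, 6116 and 5701, and 3963 after that in CA3, where they were 6183, 6753 and 4870.4. Its mean lesion effect was -0.63 ± 0.23 (adjusted p = 0.771 by limma; SE from 2 lesion and 6 control arrays), with -0.69 in CA1 and -0.57 in CA3. Both lesion values are the lowest of their field, and the other probe sets of Kcnma1, both dim, went opposite ways (1.41 and -1.20). Kcna2, an axonal delayed rectifier, read 1625 (CA1) and 1626 (CA3) with the lesion, below its 6 controls given above (-0.62 ± 0.28, adjusted p = 0.771). Its dim second probe set stood at 0.82, and the mean of both gives 0.099. Kcnh1 was 1312 and 1587 (-0.42 ± 0.29) and Kcns3 2989 and 2272 (-0.45 ± 0.25). The margin to the lowest control was smaller than the range of the controls in both fields for Kcnma1, Kcna2 and Kcns3, and for Kcnh1 in CA3 and not in CA1.

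For 2 genes the lesion array lay above all 3 controls in both fields (4.88%, against 7.98%). Kcnj16, which pairs with Kcnj10 in the astrocyte membrane, read 2581 with the lesion in CA1, over controls of 2124, 2244 and 2548, and 3451 with that in CA3, over controls of 1235, 3194 and 2791 (0.40 ± 0.34, adjusted p = 0.844). The margin in CA1 was small. The summed astrocyte signal was 1074430 and 1162540 in the lesion arrays, against 783204 to 1157540 and 711654 to 841704 in the controls, and its part was not tested. The second probe set of Kcnj16 stood at -0.11. Kcnj3 read 559 with the lesion in CA1 and 1004 with that in CA3, each above the controls of its own field (0.72 ± 0.64, adjusted p = 0.845). The other probe sets of Kcnj3, both dim, stood at -0.38 and -0.055.

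**Figure D5:**
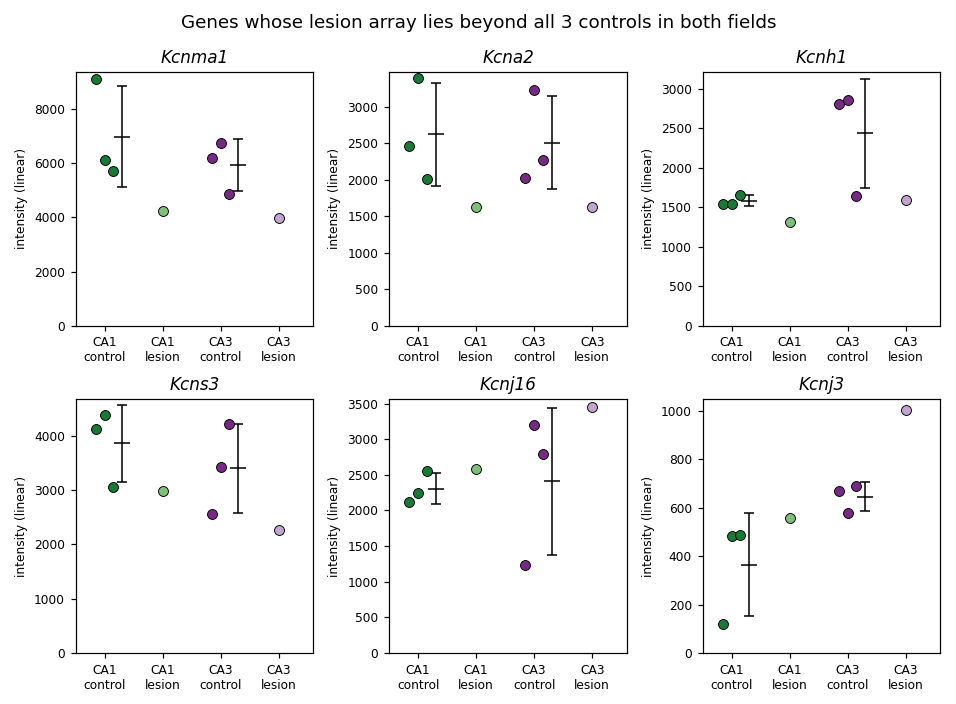
Deposited linear intensity (y axis, from 0) of the 6 genes whose lesion array lies beyond all 3 controls in the same direction in both fields, with 1 point per array and, for controls, the mean and SD (bar). Kcnma1, Kcna2, Kcnh1 and Kcns3 have the lesion point under the controls of its field, and Kcnj16 and Kcnj3 have it above.

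The lesion arrays of the fields went opposite ways for 6 genes, Kcna5, Kcna6, Kcnd1, Kcnk4, Kcnk13 and Kcnv1 (14.6% of the 41, against 9.49% of all probe sets). The difference of the lesion effects, CA3 minus CA1, was tested for every gene and none of the 41 passed in limma (adjusted p = 0.9999, with 0% of all probe sets passing). At an unadjusted p under 0.05 there were 3, Kcnk13, Kcnk4 and Kcnv1 (7.32%, against 3.09%). Kcnk13, known from microglia, read 104 with the lesion in CA1, with a difference of -2.58 from its controls, and 1235 with that in CA3, with 1.78 (4.37 ± 1.44 for the difference). CA3 control 2, at 112, was nearly as low as the lesioned CA1. Kcnk4 was 421 and 1945 against controls of 1212, 1129 and 857 in CA1 and 1225, 1223 and 623 in CA3 (2.27 ± 0.77). Kcnv1 was 3111 in CA1 and 1746 in CA3, so that its field order in the controls was turned round (-1.50 ± 0.53).

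In the single fields, 0 of 41 genes passed in limma for CA1 and for CA3, like 0% of all probe sets. At an unadjusted p under 0.05 there were 2 in CA1, Kcnk13 and Kcnk4 (4.88%, against 3.63%), and 1 in CA3, Kcnk6 (2.44%, against 4.68%). Kcnk6, a leak channel subunit, read 49.5 in the CA3 lesion array and 356, 573 and 354 in its controls (-2.72), while the CA1 lesion array, at 473, lay among controls of 713, 1229 and 291. Kcna5 was also low in the CA3 lesion array, at 94 against 611, 278 and 436, while in CA1 it stood at 579.6, over controls of 532, 319.8 and 554. The lesion array was below all its controls for 13 of 41 genes in CA1 (31.7%, against 24.8% of all probe sets) and for 17 in CA3 (41.5%, against 24.8%), and above them for 8 in CA1 (19.5%, against 21.2%) and 7 in CA3 (17.1%, against 29.7%). Of the 7 tested Kcnd and Kcnip genes, picked out after their values were seen, 4 were below all CA3 controls: Kcnd2 (1658, a difference of -0.47), Kcnd3 (2892, -0.53), Kcnip1 (1248, -0.53) and Kcnip2 (6057, -0.41). Kcnip3 and Kcnip4 lay among their controls and Kcnd1 above them (0.88). The axonal A-type subunit Kcna4 was also below its CA3 controls (1277, -0.61). For Kcnd3 and Kcnip2 the second tested probe sets stood above the mean of their CA3 controls (0.27 and 0.21). The dim probe sets of Kcnd2, Kcnd3 and Kcnip1 stood below that mean, and that of Kcnip2 above it. The CA3 lesion array had the highest Gapdh ratio of the 8 (5.23, against 3.75 to 3.93 in the CA3 controls). Its beta-actin ratio (19.8) lay within the range of the CA3 controls (15.0 to 21.4). The part of RNA quality was not tested, and with a single lesion array it cannot be told apart from the lesion.

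Channel genes linked to single cell types of glia, blood or vessel were mostly too dim to follow. Kcna3 and Kcnn4, channels of microglia and leukocytes, ran from 23.4 to 641 and 16.1 to 492. Each had its highest value in CA1 control 2, where 25.6% of all dim probe sets had theirs. Kcnj10, the main astrocyte inward rectifier, ran from 20.9 to 444, highest in CA1 control 1. Kcnj8, a channel of vessel wall cells, ran from 24.8 to 1266. The microglia sum was highest in the CA1 lesion array, and the astrocyte sum in the CA3 lesion array. Kcnb2, the only Kcnb gene here, ran from 15.2 to 353.

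Partners of the channels from outside the family were read from the same fit. Of 13 measured anchoring and accessory genes, 0 passed in the field comparison (0.526% of all probe sets) or the lesion comparison (0%). Their medians were -0.094 and -0.24. In the mean lesion effect 10 of the 13 were lower, against 47.8% of all probe sets tested, and no set test was made. The smallest p for the fields was that of Lgi1, a secreted protein that acts on axonal Kcna channels, at 0.99 (adjusted p = 0.107), followed by Adam22, its receptor, at -0.63 and the axon scaffold Ank3 at -0.93. Dpp6 and Dpp10, accessory proteins of Kcnd channels, differed by -0.13 and 0.23 between the fields and by -0.34 and -0.93 in the mean lesion effect. Dlg2, a scaffold that clusters Kcna channels, stood at -1.01 in the lesion. Of 5 tested receptors that open Kcnj channels, 0 passed, and Gabbr2 differed by 0.73 (adjusted p = 0.265) between the fields. The 2 tested Hcn channels and the 4 measured pump and cotransporter genes had 0 past the threshold, with field medians of 0.52 and 0.12.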

How the data were processed

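The deposited table holds 1 linear intensity per probe set and array; per the deposited values, every array has a 2% trimmed mean near 2501, so the authors appear to have scaled the arrays alike. The array software, genome build and probe summary are not stated in the labels or file, and detection calls were not used. Groups and replicate numbers came from the sample titles. Intensities were converted to log2(value + 16). The 57 control probe sets were left out, and of the rest those at or above the 40th percentile of the mean were tested (18625). Limma 3.58.1 in R 4.3.3 was fitted to all 8 arrays with 1 coefficient per group, an intensity trend in the variances and 4 residual df; lone lesion arrays are assumed to vary like the controls. P-values were adjusted by Benjamini-Hochberg over all probe sets tested (threshold 0.05). Nothing says the samples came from separate animals, so p-values cover only how these pools vary, which may be technical. The fit was tested on simulated arrays. Arrays have no read depth, and their number limits the precision. Gene symbols came from the platform annotation, and all 72 genes matched a rat RefSeq gene of GRCr8. The genes and lists were chosen with earlier results of these data known. Named by rule are genes past the threshold, those whose control or lesion arrays do not overlap, the 2 brightest of each subfamily (6 of the auxiliary and silent genes), those linked to a cell type, and up to 4 partners per list by p. Other genes above the filter are named after their values were seen. Alternatives are listed with their effect in the closing section.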

Additional observations from a re-analysis of the deposited data

How the results depend on the processing

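No potassium channel gene passed in any of the comparisons under quantile normalisation, pseudocounts of 1 and 64, no filter, a filter at the 60th percentile, variances without an intensity trend, each gene's probe sets averaged, exclusion of those that may cross-hybridise, or any control array left out in turn. Nor did any in the comparisons that could be fitted without a lesion array, in the fields with the 6 controls alone, or in the mean lesion effect with an additive model. The exception was the replicate block, where 1 gene passed in the field comparison, Kcnab1 (-1.33, adjusted p = 0.00279), of 358 probe sets in all (1.92%). Under the block 0 of 41 genes passed for the mean lesion effect (3.74% of all probe sets), the CA1 lesion (1.39%) or the CA3 lesion (1.66%), and the median lesion effect of the 41 genes became -0.39 rather than -0.17. Among the partner genes the block gave calls for Lgi1 (adjusted p = 0.00884), Adam22 (0.0476) and Gabbr2 (0.0214) between the fields and for Dpp6 (0.0482) and Slc12a2 (4.4e-05) in the mean lesion effect, Slc12a2 also in each field. Deviations from the group means of same-numbered CA1 and CA3 controls correlated at 0.155, 0.0601 and 0.306 across probe sets, each the highest of its array, but number 2 stayed under 0.1, so the numbers were not taken to pair the arrays. Over its alternatives the adjusted p of Kcnab1 ran from 0.00279 to 0.723 (probe sets averaged, -0.64), that of Kcnj4 from 0.0946 to 0.599 and that of Kcnj14 from 0.195 to 0.858. The 14 values of named genes were recomputed 267 times and kept their direction in 266, but they were picked on these arrays, so this is no sign of stability. The exception was the lesion effect of Kcna2 with its probe sets averaged, 0.099, since the second, dim probe set differed the other way. With single arrays left out, the median of the 41 genes ran from -0.18 to 0.075 between the fields and from -0.24 to -0.084 for the lesion. A fit without a lesion array gives the lesion effect of the other field alone, so this last range mixes an array left out with a field. Fits without control 1 and without control 3 of both fields were added after the data were seen and had 0 genes past the threshold in both comparisons. A single lesion array per field limits every lesion value.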

Other observations

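Dim channel genes often had their extreme values in the same arrays, which was not tested. Of the 31 genes under the filter, 12 had their highest value in CA1 control 2, among them Kcna3 (641), Kcnn4 (492), Kcnh8 (893), Kcne2 (719) and Kcnj9 (852), while 10 had their lowest in CA3 control 3. Over all dim probe sets 25.6% peaked in CA1 control 2 and 22.5% were lowest in CA3 control 3. For the 41 brighter genes the counts were 6 and 7. CA1 control 2 also had the lowest mean correlation with the other arrays, 0.846. A few tested genes were low there instead, Kcnk12 at 38.5, Kcnk5 at 58.9 and Kcnn3 at 41.9, where their highest values were 840.5, 1052 and 1262. These genes were picked out after their values were seen, and no cause was tested.

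The lesion values of Kcnj6 depended on the probe set. The brightest one had a mean lesion effect of -0.14, a pair of dimmer tested ones -1.21 and -1.29, with the lesion array under all controls in both fields, and the dim one 1.90. For Kcnd3, the brightest stood at -0.16 and the second tested one at -1.87, where the CA1 lesion array alone was low (20.7, a difference of -4.01) and the CA3 lesion array lay above its controls (0.27). These probe sets were also picked out after their values were seen.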
